A study of Mus musculus with 62 samples.

Results

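The hexose transporters and fructose enzymes are a set of 9 mouse genes: the facilitative transporter genes Slc2a1, Slc2a3, Slc2a4, Slc2a5, Slc2a8 and Slc2a12, and the enzyme genes Khk, Tkfc and Sord. They were taken by symbol from the expression tables, which together hold 35309 symbols, and all 9 were found in each of the 4 tables. The study deleted or overexpressed the transcription factor ChREBP (gene Mlxipl) in skeletal muscle and measured RNA in 62 libraries of 14 groups. Levels are in FPKM, fragment counts scaled by transcript length and by the fragments mapped in the library, so that levels can be compared between genes.

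The groups differ in muscle, genotype and treatment. Stress libraries are called by the names in their labels. F/F mice, the littermate controls, have a floxed ChREBP gene (ChREBP-flox) and no Cre; ChMKO mice carry the same floxed gene with Mck-cre, a Cre driven by the muscle creatine kinase promoter, which also acts in heart. In the chow experiment, untreated gastrocnemius (GC) and soleus (SOL) were taken from F/F and ChMKO mice (n = 5 per group), and the labels number the samples alike in both muscles without stating that they came from the same animals. In the stress experiment, GC came from F/F and ChMKO mice in normoxia (Norm), after 2 weeks in a chamber simulating about 5500 m (Hypo), or after 3 months on a high-fructose diet (HFrD) with 68% of calories from fructose, 20% from protein and 12% from fat (n = 4 per group). In the AAV experiment, GC of C57BL6/J mice was injected with AAV9 carrying GFP (AAV-GFP, the control) or full-length mouse ChREBP under the CMV promoter (AAV-ChREBP), and was collected 14 days later (n = 5 per group). In the cell experiment, C2C12 cells, a mouse myoblast line, held a control vector or a ChREBP vector (Ch-OE) as stable lines and were collected on day 7 of differentiation (n = 4 per group). Mice were male and 8 to 10 weeks old unless stated otherwise, and the age of the HFrD mice at collection is not given in the sources used here. The C2C12 replicates are samples of 1 line per vector, so their spread may be technical. All values are for whole tissue or whole cultures, in which fewer cells of a type and less RNA per cell cannot be told apart.

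Hexoses cross the plasma membrane through the SLC2 (GLUT) proteins. Slc2a4 encodes GLUT4, the insulin- and contraction-responsive glucose transporter of myofibers and adipocytes; Slc2a1 encodes GLUT1, the widespread basal glucose transporter, and Slc2a3 encodes GLUT3, a high-affinity glucose transporter best known from neurons. Slc2a5 encodes GLUT5, the fructose transporter of the intestine, while Slc2a8 (GLUT8) and Slc2a12 (GLUT12) encode transporters that reside largely in intracellular membranes. Fructose is phosphorylated by ketohexokinase (Khk), the resulting fructose 1-phosphate is split, and the glyceraldehyde that results is phosphorylated by triokinase (Tkfc). Sorbitol dehydrogenase (Sord) makes fructose from sorbitol in the polyol pathway. In liver, this fructose pathway is a classic setting of ChREBP, which pairs with Mlx and binds E-box sequences in target promoters.

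To show the letters that such factors read, the promoters of the members were taken from RefSeq (GRCm38.p6), as 300 bases from 250 before to 50 after the start of transcription. The table held 7 of the 9 members and did not include Slc2a3 and Slc2a4. The E-box CACGTG, which reads the same on both strands, was searched, as were the hypoxia response core ACGTG on either strand (ACGTG or CACGT, each contained in CACGTG) and a pair of CACGTG motifs 5 bases apart, the spacing of the carbohydrate response element. CACGTG was found in 1 of the 7 promoters, beside 7.15% of the 32851 mouse promoters of the same length in the table, and ACGTG in 2 of 7, beside 19.6%. The exact E-box pair was in none of them and in 0 of the 32851. Shown here are the promoters of Khk, which holds the E-box, of Slc2a1, which holds the core alone, and of Tkfc, which holds neither and is the one member that passed the test with ChREBP in C2C12 cells; capitals mark CACGTG or ACGTG. The Khk promoter lies at chr5:30921309-30921608 (plus strand), with its E-box starting 71 bases upstream of the RefSeq start. The Slc2a1 promoter lies at chr4:119108495-119108794 (plus strand), with ACGTG starting 36 bases upstream. The Tkfc promoter lies at chr19:10604209-10604508 (minus strand). These windows follow the RefSeq start, which is that of the gene in the chow table for Slc2a1 but lies inside the gene as that table gives it for Khk and Tkfc, so other starts of these genes were not searched. A match is a description of the letters in this window and no evidence of binding.
Khk: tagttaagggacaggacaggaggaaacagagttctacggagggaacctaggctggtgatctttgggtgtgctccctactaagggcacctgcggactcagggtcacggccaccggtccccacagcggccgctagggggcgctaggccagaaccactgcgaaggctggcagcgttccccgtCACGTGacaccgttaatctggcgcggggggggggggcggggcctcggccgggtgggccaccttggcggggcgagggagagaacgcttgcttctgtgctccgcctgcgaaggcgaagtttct
Slc2a1: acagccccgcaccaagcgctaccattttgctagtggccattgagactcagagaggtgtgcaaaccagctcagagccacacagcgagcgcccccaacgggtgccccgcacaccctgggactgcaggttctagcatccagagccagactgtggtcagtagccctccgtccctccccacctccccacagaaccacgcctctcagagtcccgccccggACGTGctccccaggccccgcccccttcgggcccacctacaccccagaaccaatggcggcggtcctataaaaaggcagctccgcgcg
Tkfc: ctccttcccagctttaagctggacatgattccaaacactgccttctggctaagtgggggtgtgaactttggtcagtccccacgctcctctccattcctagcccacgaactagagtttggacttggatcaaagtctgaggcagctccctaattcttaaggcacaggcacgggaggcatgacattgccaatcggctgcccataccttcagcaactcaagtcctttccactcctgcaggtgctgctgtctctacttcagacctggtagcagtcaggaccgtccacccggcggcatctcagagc

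The stress libraries hold 14473169 to 23460511 reads on genes, recovered from the deposited values, and the deepest chow library was 1.21 times as deep as the shallowest. ChREBP itself checked the labels: Mlxipl was 7.76 to 10.8 FPKM in the 12 F/F libraries of the stress experiment and 2.38 to 4.49 in the 12 ChMKO libraries, 20.4 to 30.3 in GC F/F and 12.5 to 18.5 in GC ChMKO, 43.8 to 64.1 in SOL F/F and 30.0 to 46.1 in SOL ChMKO (these last overlap), 10.3 to 12.3 with AAV-GFP and 52.9 to 101 with AAV-ChREBP, and 0 to 0.02 and 12.8 to 13.8 in control and Ch-OE C2C12 cells. Reads outside the deleted exon still count in the knockout. The 24 stress libraries fell into 2 sets of 12 along the first principal component, which held 61.6% of the variance. In the first set, 34.3 to 39.6% of FPKM came from mitochondrial genes, and in the second 14.1 to 29.0%. All 8 HFrD libraries, Norm F/F libraries N_WTc397 and N_WTc401 and Hypo F/F libraries H_WTc360 and H_WTc361 belong to the first set; all Norm ChMKO and Hypo ChMKO libraries, Norm F/F libraries N_WTc368 and N_WTc369 and Hypo F/F libraries H_WTc341 and H_WTc348 belong to the second. The labels name no batch for this split, and in ChMKO mice it coincides with the diet, so there the set and the diet cannot be told apart.

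In muscle the set was dominated by a single transporter. Slc2a4 (chr11:69942286-69948217 in GRCm38) had group means of 73.1 to 183 FPKM in the 12 muscle groups, and took 77.5 to 94.5% of the summed FPKM of the 6 transporters in each muscle library. Sord (chr2:122234839-122265337) came next at 18.2 to 42.2 FPKM, followed by Khk (chr5:30921436-30931248) at 4.5 to 8.34 FPKM. The group means of Slc2a1 (chr4:119108745-119137330) were 1.97 to 5.91 FPKM, those of Slc2a3 (chr6:122727809-122802274) 0.389 to 3.67, those of Slc2a8 (chr2:32972981-32982171) 1.67 to 3.91, and those of Slc2a12 (chr10:22612730-22703880) 1.83 to 5.02. These 4 transporters lay close together and exchanged places between experiments: Slc2a8 was the second transporter in chow GC, Slc2a1 in SOL, and Slc2a12 or Slc2a3 in the stress experiment. Tkfc (chr19:10592197-10605482) was the lowest of the 3 enzymes, at 0.366 to 1.54 FPKM. Slc2a5 (chr4:150119276-150144168) was at or next to 0 in every group, with a highest value of 0.0545 FPKM among the muscle libraries. Levels were set side by side across experiments without a test, since each table was normalized on its own.

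**Figure D1:**
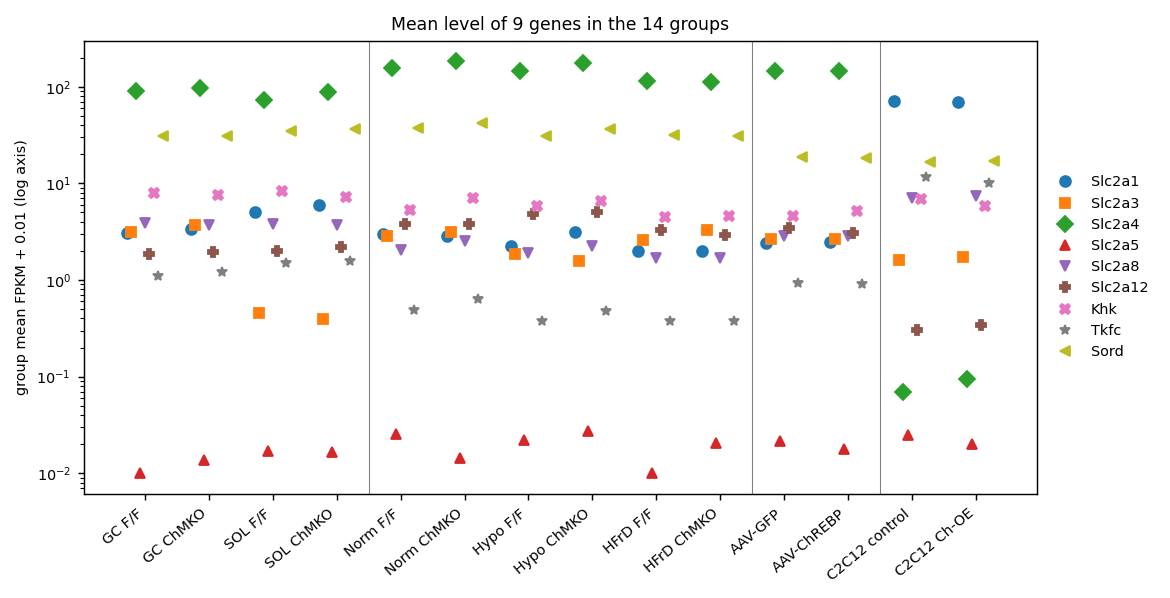
Group mean FPKM plus 0.01 (log axis) of the 9 genes in the 14 groups, with grey lines between the 4 experiments. Slc2a4 lay on top in all 12 muscle groups and near the bottom in the C2C12 groups, where Slc2a1 lay on top, and Slc2a5 lay at the bottom throughout.

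C2C12 cells showed another order. Slc2a1 was 69.9, 71.4, 71.8 and 69.6 FPKM in the 4 control libraries and took 87.3 to 89.2% of the transporter sum there. Slc2a4 was 0.09, 0.09, 0.06 and 0 FPKM in the same libraries, so the transcript that dominates muscle was at the edge of detection on day 7. Slc2a8 followed at 7.10 ± 0.67 FPKM (SD, n = 4). Tkfc reached 11.7 ± 0.31 FPKM there, beside 6.87 ± 0.22 for Khk and 16.5 ± 0.90 for Sord. Tkfc was thus above Khk in the cells and below it in each muscle group.

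The high-fructose groups address whether a long fructose load changes these genes and whether muscle ChREBP takes part. In ChMKO mice, 4 of the 7 members tested were lower on HFrD than in normoxia (limma on log2(FPKM + 1), Benjamini-Hochberg adjusted p under 0.05), namely Slc2a4, Slc2a8, Khk and Sord, and none was higher. Of all 10733 genes tested in that comparison 64% passed and 44.6% were lower, so 4 of 7 is near the background. In F/F mice none of 7 passed on HFrD, and 0% of 10707 genes did, although 2531 had an unadjusted p under 0.05. Between genotypes on HFrD none of 7 passed, and 0.019% of 10515 genes did. The median log2 difference of all genes was -0.17 in ChMKO mice and -0.10 in F/F mice.

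Slc2a4 was the clearest of them. It was 187, 184, 185 and 179 FPKM in the Norm ChMKO libraries and 116, 107, 109.8 and 113 in the HFrD ChMKO libraries, so the groups did not overlap, as for 39.2% of all genes tested, counting those lower on HFrD. The difference on the log2(FPKM + 1) scale was -0.72 (SE 0.04), with a limma adjusted p of 1.58e-06, and the HFrD mean was 0.607 times the Norm mean. Each HFrD value was below each Norm value in the other genotype too. Levels in F/F mice were 128, 123, 169 and 208 FPKM in normoxia and 107, 109, 121 and 120.1 on HFrD. All 4 HFrD values were lower, as for 13.3% of genes, but the difference of -0.43 (95% interval -0.80 to -0.05) had a limma adjusted p of 0.188. The Norm F/F values fell apart by library set: 128 and 123 FPKM belong to the first set, which holds all HFrD libraries, and 169 and 208 to the second.

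Across all 24 stress libraries, Slc2a4 was 107 to 128 FPKM in the first set and 144 to 208 FPKM in the second, with no overlap. The sets were drawn from expression of the other genes in these libraries, so a division by set is not particular to Slc2a4. The share of all genes without overlap between the sets was not counted. In Hypo F/F mice, which were all on the same treatment, the first-set libraries had 119 and 114 FPKM and the second-set libraries 176 and 170.6. With the set as a covariate, an alternative chosen after seeing the data, the difference between HFrD and Norm in F/F mice was -0.14 (SE 0.09) with a limma adjusted p of 0.544. Leaving mitochondrial genes out of the total, also chosen after seeing the data, moved the median of all genes in ChMKO mice to 0.01 and the difference of Slc2a4 to -0.47, with a limma adjusted p of 6.02e-05. Within the first set, all 4 HFrD F/F values were below both Norm F/F values, and no Norm ChMKO library belongs to that set.

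**Figure D2:**
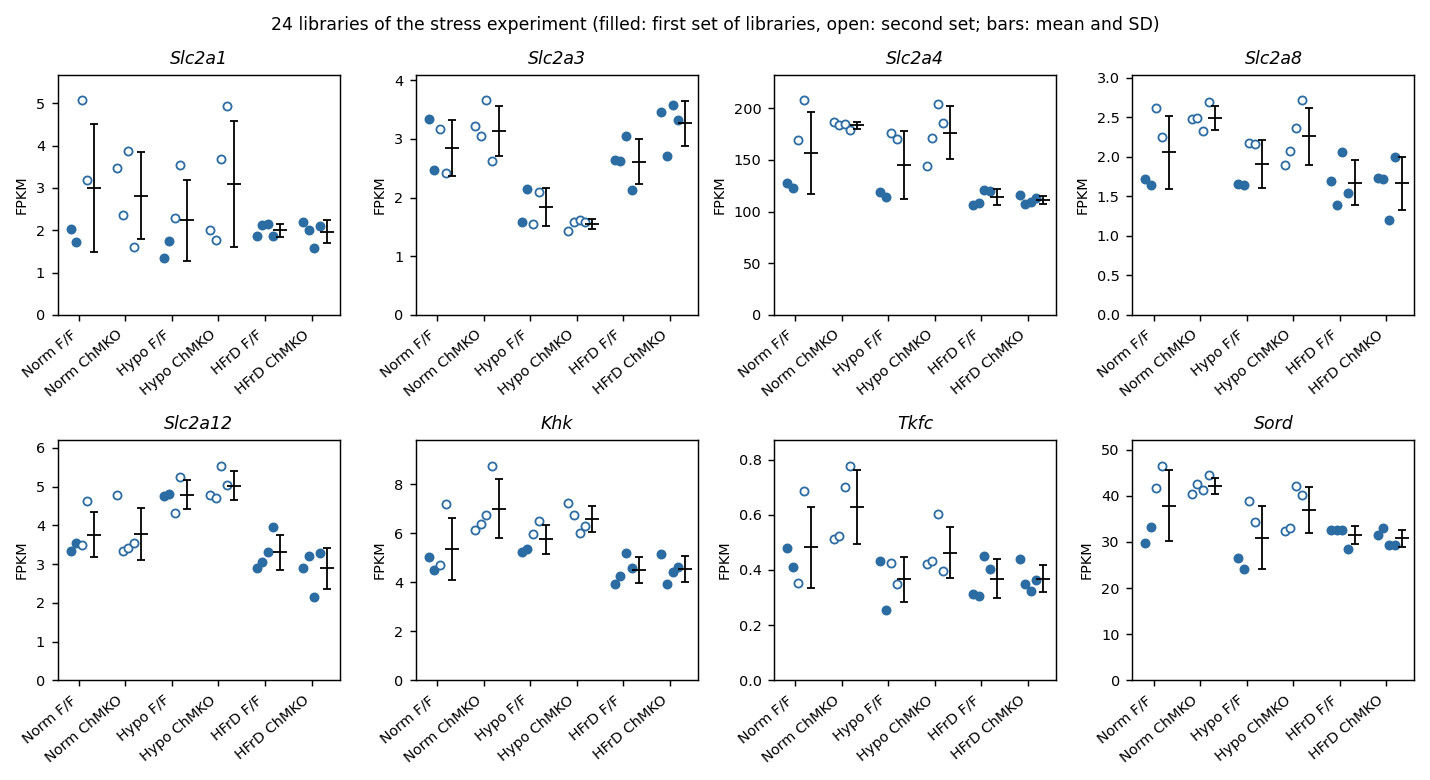
FPKM of 8 members in the 24 stress libraries, with filled points for the first library set, open points for the second, and bars for the mean and SD of each group (n = 4). The filled points of Slc2a4 (107 to 128 FPKM) lie below all open points (144 to 208 FPKM) whatever the genotype and treatment, while Slc2a3 is low in both hypoxia groups in either set. The sets were drawn from expression of the other genes in these libraries.

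Slc2a4 overlapped between the genotypes on the diet. The mean was 114 ± 7.5 FPKM in HFrD F/F and 111 ± 3.7 in HFrD ChMKO mice (SD, n = 4 each), and the difference of -0.03 had a 95% interval of -0.15 to 0.09 on the log2 scale. All 8 of these libraries belong to 1 set. The test of whether the diet difference itself depended on genotype gave -0.29 (SE 0.18) with a limma adjusted p of 0.468, and 0% of 10734 genes passed it. Without Norm F/F library N_WTc369, the library with the highest Slc2a4 (208 FPKM), that difference was -0.43 with a limma adjusted p of 0.0439, and with the set as a covariate it was -0.00. In that last fit the set term rests on the Norm F/F libraries alone, since no other group in it holds both sets. In ChMKO mice the set coincides with the diet, so this value cannot decide whether the diet difference depended on genotype.

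Of the fructose enzymes, Khk was 6.15, 6.38, 6.76 and 8.77 FPKM in Norm ChMKO and 5.17, 3.93, 4.42 and 4.64 in HFrD ChMKO libraries. The groups did not overlap, as for 39.2% of all genes tested, counting those lower on HFrD. The difference was -0.53 (SE 0.11) with a limma adjusted p of 0.00215. It was -0.36 (0.0232) after rescaling and -0.33 (0.0398) without the mitochondrial genes. Khk, which phosphorylates the sugar of this diet, was thus lower in the HFrD ChMKO libraries. Over all 24 libraries it was 3.93 to 5.34 FPKM in the first set and 4.70 to 8.77 in the second. Khk in F/F mice was 5.02, 4.49, 4.70 and 7.21 FPKM in normoxia and 3.95, 4.27, 5.18 and 4.58 on HFrD, which overlap (difference -0.20, 95% interval -0.51 to 0.12, or -0.07 with the set as a covariate). Between the genotypes on HFrD it differed by 0.01 (95% interval -0.18 to 0.20).

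Tkfc, the triokinase, was under the filter of 0.5 FPKM on average in the comparisons with HFrD and rested on 24 to 56 reads per library. It was 0.512, 0.522, 0.702 and 0.778 FPKM in Norm ChMKO and 0.440, 0.350, 0.322 and 0.364 in HFrD ChMKO libraries, with no overlap. Of the genes over the filter in this comparison, 39.2% were lower on HFrD without overlap. An exact two-sided permutation test gave p = 0.0286, the smallest possible with 4 against 4, and 0.6 after adjustment over the 21 tests of members under the filter. In F/F mice the exact permutation p was 0.2, from 0.482 ± 0.15 FPKM in normoxia and 0.368 ± 0.07 on HFrD (SD, n = 4). On HFrD the genotypes had nearly the same mean, 0.368 and 0.369 FPKM.

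Sord, which makes fructose from sorbitol, was 40.5, 42.5, 41.3 and 44.5 FPKM in Norm ChMKO and 31.4, 33.1, 29.3 and 29.4 in HFrD ChMKO libraries. The groups were clear of each other, as for 39.2% of all genes tested, counting those lower on HFrD. The difference was -0.44 (SE 0.06) with a limma adjusted p of 0.000128. It was -0.26 (0.00788) after rescaling and -0.20 (0.0282) without the mitochondrial genes. Sord in F/F mice was 29.8, 33.3, 41.7 and 46.6 FPKM in normoxia, the first pair from the first library set, and 32.5, 32.5, 32.6 and 28.5 on HFrD. These overlap, and the difference of -0.24 became -0.00 with the set as a covariate. Over all 24 libraries Sord was 24.2 to 33.3 FPKM in the first set and 32.5 to 46.6 in the second.

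Slc2a8, the intracellular transporter GLUT8, was 2.48, 2.49, 2.33 and 2.69 FPKM in Norm ChMKO and 1.74, 1.73, 1.2 and 2.00 in HFrD ChMKO libraries. The difference was -0.40 (SE 0.09) with a limma adjusted p of 0.00438, which became -0.26 and 0.0612 without the mitochondrial genes. Slc2a8 also divided by set, with 1.2 to 2.06 FPKM in the first and 1.90 to 2.72 in the second. Slc2a12 was 4.77, 3.35, 3.43 and 3.54 FPKM in Norm ChMKO and 2.90, 3.21, 2.14 and 3.29 in HFrD ChMKO libraries. These did not overlap, as for 39.2% of all genes tested, counting those lower on HFrD. The difference of -0.30 had a limma adjusted p of 0.0567, and was -0.12 (0.475) without the mitochondrial genes. Slc2a1 overlapped between diets in both genotypes (differences -0.33 in ChMKO and -0.34 in F/F mice). The first was -0.16 without the mitochondrial genes, and the second turned to 0.07 with the set as a covariate.

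Slc2a3 was not lower on the diet in ChMKO mice. It was 3.45, 2.71, 3.57 and 3.32 FPKM in HFrD ChMKO and 2.64, 2.63, 3.05 and 2.13 in HFrD F/F libraries, all from the same set. The difference of 0.24 (95% interval 0.04 to 0.45) had a limma p of 0.0254 that did not survive adjustment (0.642). Between HFrD and Norm ChMKO mice Slc2a3 differed by 0.04 (SE 0.09, limma adjusted p of 0.687). That difference was 0.19 after rescaling by median ratios (0.103), 0.25 without the mitochondrial genes (0.0455, a call higher on HFrD) and -0.0172 without N_KO_380.

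Slc2a5, the fructose transporter, was at the floor on the diet. It was listed at 0 in all 4 HFrD F/F libraries and at 0, 0.0136, 0.0137 and 0.0150 FPKM in HFrD ChMKO libraries. In the stress experiment 0 to 3 reads per library fell on this gene. A count of 0 allows up to 3 reads, which is 0.0376 to 0.0459 FPKM in the HFrD F/F libraries, counting error only. No difference of Slc2a5 on HFrD was detectable at this depth.

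**Figure D3:**
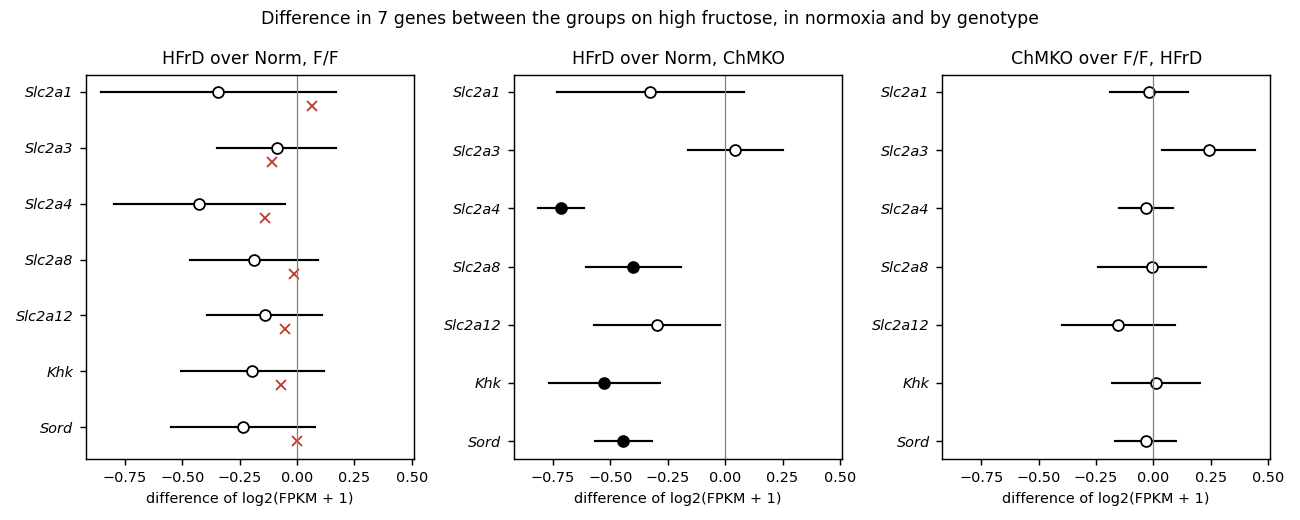
Differences of log2(FPKM + 1) in 7 members for HFrD against Norm in F/F mice, HFrD against Norm in ChMKO mice, and ChMKO against F/F on HFrD; lines are 95% intervals, filled points have a limma adjusted p under 0.05, open points do not, and red crosses give the value with the library set as a covariate. Slc2a4, Slc2a8, Khk and Sord are filled in ChMKO mice, and the crosses in F/F mice lie nearer to 0 than the points for all members but Slc2a3.

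Markers of fast myofibers and of some other cell types moved with the same split. The endothelial list summed to 50.7 to 61 FPKM in the first set and 71.9 to 121 in the second, and the fast myofiber list to 41630 to 45992 and 49194 to 66684, with no overlap in either. Markers with a mean of at least 0.5 FPKM were among the genes from which the sets were drawn. The macrophage (16.7 to 34.8 and 27.0 to 79.9), fibroblast (124 to 190 and 160.3 to 441) and erythroid (62.3 to 331 and 205 to 839.8) lists had higher sums in the second set and overlapped between the sets. The same held for the myoblast (4.45 to 11.1 and 9.02 to 44.3) and nerve (26.7 to 111 and 42.5 to 224) lists. The slow myofiber (medians 352 and 320.1) and adipocyte (68.7 and 72.4) lists had similar medians in both sets. Between HFrD and Norm slow myofiber markers had a median difference of 1.72 in F/F mice (0 of 6 tested passed) and 1.63 in ChMKO mice (1 of 6 passed). Their sum was 295 to 411 FPKM in HFrD F/F beside 94.9 to 447 in Norm F/F, and 135 to 497 in HFrD ChMKO beside 59.9 to 321 in Norm ChMKO libraries. In ChMKO mice all 7 endothelial, all 5 erythroid and all 4 hepatocyte markers were lower on HFrD, beside 44.6% of all genes. So were 4 of 5 macrophage and 4 of 5 fibroblast markers tested, and no marker of these lists passed as higher. Hepatocyte markers were also found in some libraries: their sum was 22.5 to 275 FPKM in Norm ChMKO, 86.0 in Norm F/F library N_WTc368 and 69.7 in Hypo F/F library H_WTc360, and at most 0.279 in the 8 HFrD libraries. Norm ChMKO library N_KO_380, with 181 FPKM of albumin, had the highest Khk (8.77 FPKM) and Tkfc (0.778 FPKM) of the experiment. N_WTc368 had the lowest Khk of the second set (4.70 FPKM) and 0.352 FPKM of Tkfc. In the first set, where Khk was 3.93 to 5.34 FPKM, H_WTc360 had 5.22 FPKM of Khk and 0.434 of Tkfc. Without N_KO_380 the difference of Khk between HFrD and Norm ChMKO mice was -0.43, with a limma adjusted p of 0.00221. The part of hepatocyte RNA, of the other cell types and of the library set in the diet differences was not tested.

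The rest of the pathway was read from lists chosen with earlier results of these data known. In ChMKO mice on HFrD, 6 of 17 GLUT4 traffic genes rose and 7 fell, beside 19.4% of all genes higher and 44.6% lower, and their median difference was -0.20 beside -0.17 for all genes. Lnpep, the aminopeptidase that travels in GLUT4 vesicles, rose by 1.01 and Tbc1d4, the Akt substrate that holds the vesicles back, by 0.60, while Tbc1d1, its relative, fell by 0.44 on the log2 scale. Of the other fructose and polyol enzymes, 4 of the 5 tested fell and none rose. They include Aldoa, the muscle aldolase (-0.66), and Akr1b3, the aldose reductase that makes sorbitol (-0.58). Hk1 fell by 0.34 and was the one that passed of the 3 hexokinases tested. None of these genes passed in F/F mice or between genotypes on HFrD.

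Hypoxia was examined against the same Norm groups, so its comparisons share control samples with those of the diet. In ChMKO mice 1 of 8 members passed, Slc2a3, beside 0.89% of 10676 genes, with 0.637% lower. In F/F mice none of 7 passed and neither did any other of the 10740 genes (0%), with 411 at an unadjusted limma p under 0.05. Slc2a3 was 3.22, 3.04, 3.66 and 2.62 FPKM in Norm ChMKO and 1.43, 1.58, 1.61 and 1.59 in Hypo ChMKO libraries. All Hypo values were below all Norm values, as for 6.57% of genes, and the Hypo mean was 0.495 times the Norm mean; the difference was -0.69 (SE 0.09) with a limma adjusted p of 0.0192. All 8 of these libraries belong to the second set. The adjusted p rose to 0.0668 without a filter on low values, to 0.064 without Hypo ChMKO library H_KOc332, to 0.0521 without Norm ChMKO library N_KO_370 and to 0.0722 without Norm ChMKO library N_KO_374, with the direction kept.

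Slc2a3 in F/F mice was 3.33, 2.47, 3.17 and 2.41 FPKM in normoxia and 1.59, 2.15, 1.54 and 2.10 in hypoxia. All 4 Hypo values were lower than all 4 Norm values, which was the case for 2.65% of genes, and this held within each library set as well. The difference was -0.43 (95% interval -0.72 to -0.15), with a limma p of 0.00714 before adjustment and 1.0 after it. Whether hypoxia acted on Slc2a3 differently in the genotypes was tested by the interaction, which gave -0.26 (SE 0.15) and a limma adjusted p of 1.0, and 0% of 10751 genes passed that test. Slc2a3 was thus lowest in hypoxia in both genotypes, at 1.43 to 2.15 FPKM in 8 libraries beside 2.41 to 3.66 in the 8 normoxic ones, with an adjusted call in ChMKO mice alone. Slow myofiber markers had a median difference between Hypo and Norm of 2.18 in F/F and 2.50 in ChMKO mice over the 6 of 7 tested, none of which passed. Their sum was 193 to 1081 FPKM in Hypo F/F beside 94.9 to 447 in Norm F/F, and 172 to 1203 in Hypo ChMKO beside 59.9 to 321 in Norm ChMKO libraries. The erythroid list had medians of 0.72 and 0.90, and hepatocyte markers a median of -2.47 in ChMKO mice, again with no gene passing. The part of these markers in the Slc2a3 difference was not tested.

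Slc2a12 had its highest levels in hypoxia. It was 4.78, 4.71, 5.54 and 5.06 FPKM in Hypo ChMKO libraries, beside 4.77, 3.35, 3.43 and 3.54 in Norm ChMKO, and the difference of 0.34 (SE 0.11) had a limma adjusted p of 0.170. In F/F mice it was 4.76, 4.81, 4.33 and 5.25 FPKM in hypoxia and 3.34, 3.56, 3.5 and 4.62 in normoxia, a difference of 0.29 (SE 0.11) with a limma adjusted p of 1.0. In both genotypes 1 Norm library, ChMKO library N_KO_370 or F/F library N_WTc369, reached into the range of the Hypo libraries. Slc2a1, a textbook target of hypoxia-inducible factors, ranged from 1.76 to 4.93 FPKM in Hypo ChMKO and from 1.35 to 3.55 in Hypo F/F mice, overlapping the Norm groups (differences 0.07 and -0.28). Slc2a4 differed by -0.07 in ChMKO and by -0.11 in F/F mice. Khk, whose spliced form in heart is known to respond to hypoxia, differed by -0.07 and 0.10, and isoforms were not separated in these values. Apart from Slc2a3 in ChMKO mice, none of the members and none of the genes in the lists of other SLC2 transporters, hexokinases, other fructose enzymes and GLUT4 traffic passed in either hypoxia comparison.

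Genotype alone did not move any member past the test in 5 muscle comparisons. The numbers tested and passing were 0 of 8 in GC on chow (0.0236% of 12724 genes), 0 of 7 in SOL (0.0225% of 13348), 0 of 8 in normoxia (0.00922% of 10848), 0 of 7 in hypoxia (0.00941% of 10628) and 0 of 7 on HFrD. Unadjusted limma p values under 0.05 were given for 589, 1300, 1207, 560 and 774 genes in the same order. In chow GC the intervals were narrow for the abundant members: Slc2a4 differed by 0.07 (95% interval -0.13 to 0.27) and Sord by 0.00 (-0.14 to 0.14). For Slc2a4 they were wider in normoxia (0.26, -0.11 to 0.62) and in hypoxia (0.30, -0.11 to 0.71). Khk differed by 0.34 in normoxia (-0.0006 to 0.686, limma p of 0.0503, adjusted 0.419). All Norm and Hypo ChMKO libraries belong to the second library set, while the F/F groups there hold both sets, so genotype and set are partly mixed. Khk was 7.40, 6.79, 11.4, 7.01 and 6.86 FPKM in GC F/F and 7.34, 6.36, 8.70, 8.24 and 7.33 in GC ChMKO libraries, and the groups overlapped. In SOL, Khk was 7.93, 8.46, 7.92, 8.07 and 9.30 FPKM in F/F and 8.16, 7.57, 7.34, 6.32 and 7.05 in ChMKO mice. That difference of -0.17 (95% interval -0.34 to -0.01) had the lowest limma p of the members there, 0.0407, and an adjusted p of 0.494.

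The muscle itself separated some members strongly. In F/F mice 3 of 8 members passed between SOL and GC, 2 higher and 1 lower in SOL, beside 50.4% of 13235 genes (37.9% higher and 12.5% lower). In ChMKO mice 4 of 8 passed, 3 higher and 1 lower, beside 57.9% of 13080 genes (41% higher and 16.9% lower). These shares are under the background, and the median difference of all genes was 0.18 and 0.15 toward SOL. Slc2a3 had the largest difference of the members, and passed the filter on low values through GC alone, since its SOL means were under 0.5 FPKM. It was 3.65, 2.12, 3.20, 2.82 and 3.73 FPKM in GC F/F and 0.515, 0.314, 0.622, 0.295 and 0.455 in SOL F/F libraries. The lowest GC value was above the highest SOL value, as for 9.64% of genes in F/F mice and 12.8% in ChMKO mice, and the SOL mean was 0.142 times the GC mean (log2 difference -1.50, SE 0.12, limma adjusted p of 5.75e-06). In ChMKO mice GC had 2.70, 3.88, 2.81, 4.10 and 4.83 FPKM and SOL 0.353, 0.246, 0.602, 0.371 and 0.374, a difference of -1.73 (SE 0.13) with a limma adjusted p of 5.81e-07.

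Slc2a1 ran opposite to Slc2a3. It was 3.38, 3.84, 2.65, 2.62 and 2.71 FPKM in GC F/F and 4.80, 5.23, 4.76, 5.44 and 4.81 in SOL F/F libraries, a difference of 0.58 (SE 0.09) with a limma adjusted p of 0.000513. In ChMKO mice it was 4.26, 2.81, 3.26, 3.36 and 2.97 FPKM in GC and 6.56, 5.66, 4.32, 6.39 and 6.61 in SOL, a difference of 0.67 (SE 0.12) with a limma adjusted p of 0.00044. All SOL values were above all GC values in both genotypes, as for 26.3% of genes in F/F and 30.2% in ChMKO mice. Endothelial markers, whose cells carry GLUT1, rose in SOL too, with 7 of 7 genes of the list passing, and slow myofiber (7 of 7) and erythroid (5 of 5) lists did the same, as did 3 of 6 adipocyte markers in F/F and 4 of 6 in ChMKO mice. Of the 8 fast myofiber markers 5 were lower in SOL in both genotypes, as Slc2a3 was, and 1 (F/F) or 2 (ChMKO) were higher. The part of these markers in the differences of Slc2a1 and Slc2a3 was not tested. After rescaling by median ratios Slc2a1 differed by 0.38 in F/F (limma adjusted p of 0.00507) and 0.51 in ChMKO mice (0.00144).

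**Figure D4:**
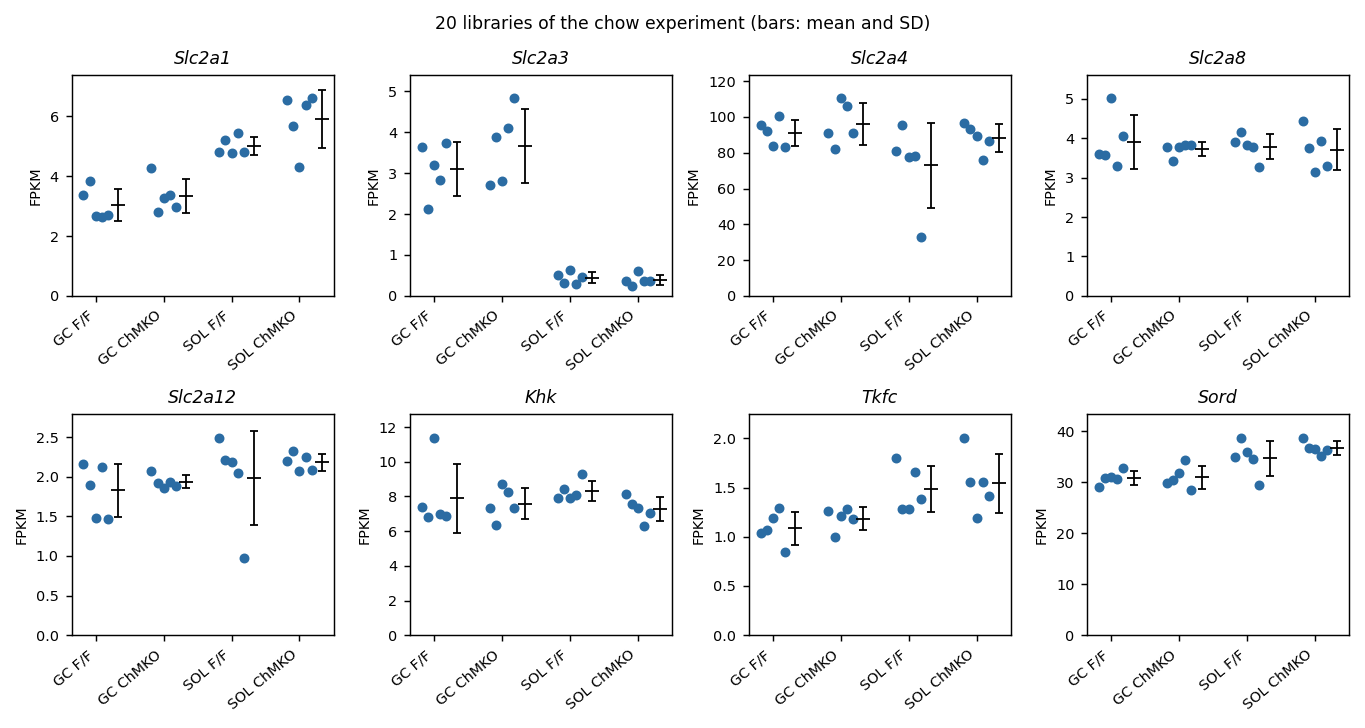
FPKM of 8 members in the 20 chow libraries of GC and SOL from F/F and ChMKO mice, with bars for the mean and SD (n = 5). Slc2a3 was 2.12 to 4.83 FPKM in GC and 0.246 to 0.622 in SOL, Slc2a1 was higher in SOL, and SOL F/F 71 was low for Slc2a4 (32.8 FPKM) and Slc2a12 (0.971 FPKM).

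Tkfc was higher in SOL at its low level. It was 1.03, 1.07, 1.19, 1.29 and 0.847 FPKM in GC F/F and 1.80, 1.29, 1.28, 1.66 and 1.38 in SOL F/F libraries, which overlap slightly, with a difference of 0.25 (SE 0.09) and a limma adjusted p of 0.0333. In ChMKO mice the difference was 0.21 (SE 0.08) with a limma adjusted p of 0.0470. After rescaling the differences were 0.11 in F/F and 0.10 in ChMKO mice. The call of Tkfc was lost under 7 of 17 alternatives in F/F and 12 of 16 in ChMKO mice. Sord was 29.8, 30.4, 31.9, 34.4 and 28.5 FPKM in GC ChMKO and 38.8, 36.8, 36.6, 35.1 and 36.4 in SOL ChMKO libraries, a difference of 0.24 (SE 0.06) with a limma adjusted p of 0.00355. Rescaling the libraries by median ratios took this to 0.04 (limma adjusted p of 0.628). Sord in F/F mice differed by 0.16 (limma adjusted p of 0.115).

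Slc2a4 did not pass between the muscles. It was 95.4, 92.3, 83.9, 100.6 and 83.5 FPKM in GC F/F and 81.2, 95.6, 77.7, 78.2 and 32.8 in SOL F/F libraries, the last of them SOL F/F 71. The difference was -0.39 (95% interval -0.92 to 0.13), and -0.13 without SOL F/F 71. In that library endothelial markers summed to 228 FPKM beside 130 to 162 in the other SOL F/F libraries, and fibroblast markers to 75.3 beside 203 to 261. In ChMKO mice Slc2a4 was 91.2, 82.0, 110.5, 106 and 90.9 FPKM in GC and 96.6, 93.5, 89.2, 76.1 and 86.3 in SOL, a difference of -0.12. After rescaling by median ratios both differences were larger, -0.65 in F/F (limma adjusted p of 0.0398) and -0.32 in ChMKO mice (0.0221). None of the members showed an interaction of genotype and muscle (0 of 8, beside 0.00759% of 13176 genes).

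Among the related genes, Sort1, the GLUT4 sorting receptor, followed Slc2a3, with means of 2.53 FPKM in SOL F/F and 15.1 in GC F/F (log2 difference -2.21, limma adjusted p of 4.37e-06). The brakes on GLUT4 vesicles divided between the muscles: Tbc1d1 was lower in SOL (-0.91) and Tbc1d4 higher (0.89). Of 16 GLUT4 traffic genes tested, 4 were higher and 5 lower in SOL of F/F mice, beside 37.9% and 12.5% of all genes. Of 3 hexokinases tested 2 were higher in SOL, Hk1 (0.86) and Hk2 (0.31), and 1 was lower. Of 4 other fructose and polyol enzymes tested Akr1b8, an aldo-keto reductase, was higher (0.45) and Aldoa lower (-1.46). These are log2 differences in F/F mice, and each of these genes had a limma adjusted p under 0.05.

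Overexpression of ChREBP in GC moved no member past the test. With AAV-ChREBP 0 of 8 members passed, beside 0.00904% of 11058 genes (1 gene, Mlxipl itself), and 322 genes had an unadjusted limma p under 0.05. Slc2a4 was 147, 145, 139, 152 and 142 FPKM with AAV-GFP and 142, 139, 144, 152 and 150 with AAV-ChREBP, a difference of 0.00 (95% interval -0.10 to 0.10). Khk was 4.65, 5.07, 4.08, 5.09 and 4.15 FPKM with AAV-GFP and 5.64, 5.64, 4.32, 4.64 and 5.82 with AAV-ChREBP. The groups overlapped, and the difference of 0.14 had a 95% interval of -0.05 to 0.34. Tkfc differed by -0.00 (-0.13 to 0.12), Sord by -0.05 (-0.17 to 0.08), Slc2a1 by 0.04 (-0.17 to 0.24) and Slc2a12 by -0.12 (-0.29 to 0.04). These intervals do not use the sample numbers that both groups share.

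In C2C12 cells, with Mlxipl going from at most 0.02 FPKM to between 12.8 and 13.8, 1 of 6 members passed and was lower, beside 30.5% of 11971 genes, with 14.1% lower. This was Tkfc, which was 11.7, 12.1, 11.7 and 11.3 FPKM in control and 9.53, 9.49, 9.98 and 11.1 in Ch-OE libraries. All Ch-OE values were below all control values, as for 14.7% of genes, and the difference was -0.21 (SE 0.05) with a limma adjusted p of 0.00811. Khk was 6.83, 6.66, 6.81 and 7.19 FPKM in control and 5.77, 4.84, 6.93 and 5.61 in Ch-OE libraries. Ch-OE 3 reached into the control range, and the difference of -0.22 (SE 0.08) had a limma adjusted p of 0.0510, or 0.00535 without that library. Markers of cell state moved in the same comparison: 4 of 5 slow myofiber and 2 of 4 myoblast markers tested were higher with ChREBP, 5 of 7 fast myofiber markers were higher and 2 lower, and 4 of 5 fibroblast markers were lower. Their part in the differences of Tkfc and Khk was not tested. Slc2a1, the main transporter of these cells, differed by -0.01 (95% interval -0.10 to 0.07), Slc2a8 by 0.05 and Sord by 0.03.

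**Figure D5:**
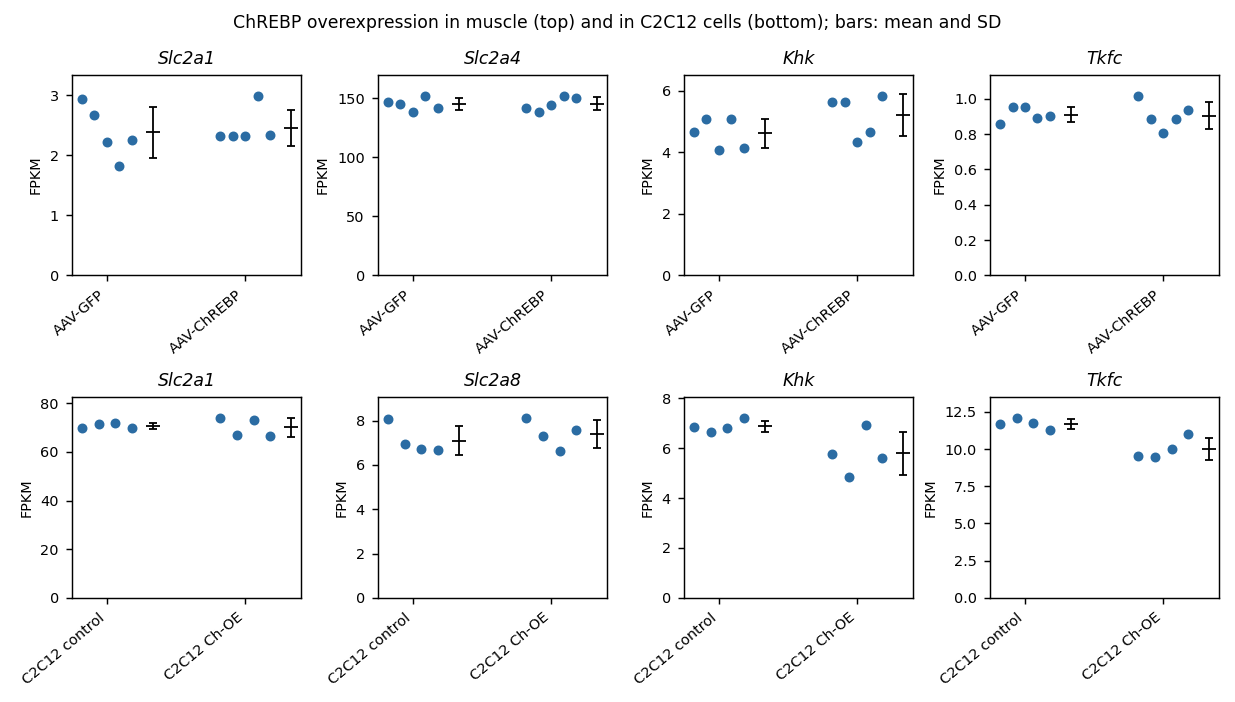
FPKM of 4 members in AAV-GFP and AAV-ChREBP muscle (top, n = 5) and of 4 members in control and Ch-OE C2C12 cells (bottom, n = 4), with bars for the mean and SD. The muscle groups overlap for all 4 members, and in the cells Tkfc (9.49 to 11.1 against 11.3 to 12.1 FPKM) is lower with ChREBP.

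Of the genes around the members in C2C12 cells, Slc2a6 (0.28) and Slc2a13 (0.17), transporter genes outside the set, rose with ChREBP. Of 16 GLUT4 traffic genes tested 2 rose, Sort1 (0.54) and Tbc1d1 (0.24), and 4 fell, among them Irs1 (-0.13) and Aspscr1 (-0.13), beside 16.3% of all genes higher and 14.1% lower. Hk1 (-0.14) and Aldoa (-0.11) fell. Of 10 regulators of transporter genes tested 3 rose, Mlxipl itself among them, and 3 fell, beside the same shares of all genes. Mef2c, a muscle transcription factor that acts on the Slc2a4 promoter, rose by 0.49, while Arrdc4, an arrestin-domain gene known as a ChREBP target, fell by 0.83 and Klf15 by 0.50 on the log2 scale. Txnip, of the same list, rose by 0.21. In muscle with AAV-ChREBP none of the transporter, hexokinase, fructose enzyme or GLUT4 traffic genes passed.

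The genes most like each member were named by the highest Pearson correlation of log2(FPKM + 1) across the libraries of an experiment, which share their library set or muscle, so these values are a description. In the stress experiment (24 libraries, 4495 genes) Slc2a4 was followed most closely by Tle5 (0.98), Mvb12b (0.98) and Pex19 (0.98), and Sord by Cox7a2l (0.95). Khk was followed by Spr (0.90), Aldoa (0.88) and Ufc1 (0.87). Slc2a3 was nearest to Odf3l2 (0.86), Mylk4 (0.85) and Pfkfb4 (0.84). In the chow experiment (20 libraries, 5979 genes) Slc2a3 was followed by Pitpna (0.99), Hmga2-ps1 (0.99) and Sort1 (0.98), and Slc2a1 by Ash2l (0.95). The highest value for Slc2a8 there was 0.77 (Ergic3), the lowest such value among the members listed.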

How the data were processed

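RNA-seq was analysed from 4 expression tables covering 62 libraries. Per the submitters' processing notes the reads were trimmed with fastp 0.18.0, aligned with HISAT2 2.1.0 or Bowtie2 2.2.8 and quantified with StringTie 1.3.1 or RSEM. The deposited values are FPKM per gene. For the AAV and C2C12 tables this unit was inferred from the values, which were deposited rounded to 3 and 2 decimals. The chow table gives GRCm38 and the stress table GRCm39 coordinates, and the positions printed are those of the chow table. Columns of the authors' own comparisons (fold changes and p-values) were not used. Groups were taken from the labels.

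Each comparison was fitted alone with limma 3.58.1 (R 4.3.3, trend on) on log2(FPKM + 1) over genes whose mean reached 0.5 FPKM, two-sided, with Benjamini-Hochberg adjustment over all genes tested and a threshold of 0.05. A fold change on this scale understates the change of low genes. Members under the filter were compared by an exact two-sided permutation test, adjusted over 21 tests. The text names all 9 members, Mlxipl, up to 4 genes of each pathway list with the largest change in a comparison, and the genes most correlated with each member. The members and lists were chosen with earlier results of these data known. The code was tested on simulated data. For the stress table, 99.8 to 99.9% of values gave whole reads (tolerance 0.01). A second Slc2a4 entry of the chow table, at most 0.0938 FPKM, was left out. For the AAV table, 20918 of 21039 identifiers matched a symbol. AAV samples of the same number had correlated deviations (0.21 to 0.49), but number 3 did not match best with its own, and the labels state no pairing. For SOL and GC and for C2C12 cells not every such correlation was over 0.1. The main tests and intervals did not use these numbers. The SOL F/F library whose title and column disagree on its number is called 69 here. Alternatives were the pseudocount 0.1, no filter or one of 5 FPKM, rescaling by median ratios, all groups in 1 fit, the replicate block, voom on recovered reads, and leaving out each library. The library set as a covariate and nuclear genes only were added after seeing the data. Some genes of the pathway lists are not reported here by name.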

Additional observations from a re-analysis of the deposited data

Results flagged for a closer look

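Dixon's ratio was computed for 126 combinations of member and group, and 15 values stood apart from their group. Chance gives about 1 in 20 where values vary freely, which does not hold for Slc2a5, where 1 value above 0 in a group of zeros stands apart whatever its size, so the total is not read against that share. Khk was 11.4 FPKM in GC F/F 69, and in that library nerve markers summed to 432 FPKM beside 18.1 to 48.2 in the other GC F/F libraries and fibroblast markers to 97.1 beside 202 to 233. Slc2a4 was 32.8 FPKM in SOL F/F 71, the library with the endothelial and fibroblast sums given above. The part of these markers in either value was not tested.

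Among the other transporters, Slc2a1 was 2.98 FPKM in AAV-ChREBP 7, Slc2a8 was 3.42 in GC ChMKO 60, and Slc2a3 was 1.43 in Hypo ChMKO library H_KOc332. Slc2a12 was 4.77 FPKM in Norm ChMKO library N_KO_370 and 4.62 in Norm F/F library N_WTc369. Sord was 28.5 FPKM in HFrD F/F library WT_C310 and Tkfc 0.602 in Hypo ChMKO library H_KOc340. For Slc2a5 the values rest on a few reads against 0: 0.04 FPKM in AAV-ChREBP 1, 0.04 in C2C12 Ch-OE 3, 0.0182 in GC ChMKO 60, 0.0170 in Norm ChMKO library N_KO_375 and 0.0324 in SOL ChMKO 60, and 0 in HFrD ChMKO library KO_C291, where the other libraries were above 0.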

How the results depend on the processing

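The number of members passing was 0 under all alternatives for genotype in GC, SOL, normoxia, hypoxia and HFrD, for AAV-ChREBP, and for HFrD and Hypo in F/F mice, and 3 to 6 under 16 alternatives for HFrD in ChMKO mice. With a filter of 5 FPKM it was 0 for SOL against GC in F/F mice, 1 in ChMKO mice, 0 for Hypo in ChMKO mice and 2 for Ch-OE, since fewer genes are tested. Without a filter it was 0 for Hypo in ChMKO mice. Rescaling gave 2 for Ch-OE. Leaving out single libraries gave 0 to 1 for Hypo in ChMKO mice, 1 to 2 for Ch-OE and 0 to 1 for the interaction of genotype and diet. Without single libraries the difference of Slc2a3 on HFrD in ChMKO mice was -0.0172 to 0.11, turning sign without N_KO_380. Rescaling turned the F/F muscle differences of Khk to -0.14 and of Sord to -0.0879. The cause was not tested.

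SOL and GC samples share only a number (correlations of deviations -0.02 to 0.32 in F/F, 4 of 5 over 0.1 and 3 of 5 best with their own, and 0.02 to 0.05 in ChMKO mice, 1 of 5 best with its own), and the block moved the calls over all genes from 6673 to 6467 and from 7575 to 7266, with Tkfc at a limma adjusted p of 0.0563 in ChMKO mice. The C2C12 replicates too share only a number (-0.09 to 0.18), and with the replicate block 2 members passed, Khk among them (limma adjusted p of 0.0433). The block changed no other call of a member. Over all genes, Hypo in ChMKO mice gave 95 calls and 6 without a filter, 166 after rescaling, 213 with all groups in 1 fit and 283 with nuclear genes only, and HFrD in F/F mice gave 0 calls and 220 with all groups in 1 fit. Low counts limit Slc2a5 (0 to 3 reads) and Tkfc (24 to 56 reads).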
